A study of Arabidopsis thaliana with 2 samples.

Results

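mir398b and mir398c are a pair of near-identical microRNA precursors of Arabidopsis thaliana, and every sequence tag listed under either name was taken, counted by its deposited read number. They are 2 of the 151 precursors in the series. The libraries were made by SPARE, which ligates an adaptor to the free 5′ ends of RNA fragments and copies the fragments from primers lying downstream in each precursor, so that each tag starts at a 5′ end made by cutting or breakage. There was 1 library of a mutant that the labels name only as fiery, with no gene or allele, and 1 library of wild type, ecotype Col-0. Each came from rRNA-depleted total RNA of seedlings of 2 weeks mixed with leaves and inflorescences of plants of 5 weeks, so no value can be traced to a tissue. Under the 2 names stood 351 tags with 10821 of the 33192 fiery reads, and 24 tags with 170 of the 12129 wild-type reads. By name, fiery held 52 tags (4732 reads) of mir398b and 299 tags (6089 reads) of mir398c, while wild type held 11 tags (125 reads) and 13 tags (45 reads). With 1 library per group there is no replicate check and no test between the libraries, and the assay does not measure the mutated gene. Ranges in parentheses are exact 95% intervals, by the method of Clopper and Pearson for a share and by the conditional binomial for a ratio. The reads were amplified without molecular identifiers and are not independent molecules, so these ranges take in counting error alone.

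As background, a plant microRNA is cut by a Dicer-like enzyme from the stem of a hairpin, as a duplex of a 5p and a 3p strand. For miR398 the 3p strand is the guide. It directs the cleavage of the mRNAs of the copper and zinc superoxide dismutases CSD1 and CSD2 and of their copper chaperone, and it is known to accumulate when copper is scarce, through the transcription factor SPL7, which spares copper for plastocyanin. A precursor may be cut first near the base of its stem or first near its loop. On the 3′ arm, the cut near the base leaves a new 5′ end at the first nucleotide after the 3p RNA, called offset 0 here, with positive offsets further downstream.

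The mature RNAs are shown because both loci give the same 3p and 5p sequences, so that only the flanks and the loop tell them apart. They were read from the RefSeq annotation of TAIR10.1, with the seed (bases 2 to 8) in capitals. miR398a of chromosome 2 is shown for comparison. Its 3p RNA has the same seed and another last base, and its precursor was not analysed here.
miR398b-3p: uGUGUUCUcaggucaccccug
miR398c-3p: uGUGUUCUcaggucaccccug
miR398a-3p: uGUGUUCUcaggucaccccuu
miR398b-5p: aGGGUUGAuaugagaacacac
miR398c-5p: aGGGUUGAuaugagaacacac

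The whole annotated precursors are shown because the fragments described below start at named places within and just after them. Capitals mark the 5p RNA (first run) and the 3p RNA (second run).
mir398b precursor: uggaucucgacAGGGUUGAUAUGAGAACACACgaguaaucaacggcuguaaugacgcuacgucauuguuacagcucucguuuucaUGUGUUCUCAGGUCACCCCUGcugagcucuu
mir398c precursor: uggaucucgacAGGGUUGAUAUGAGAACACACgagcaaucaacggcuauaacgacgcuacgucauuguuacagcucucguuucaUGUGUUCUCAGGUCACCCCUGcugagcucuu
The mir398b precursor (AT5G14545) lies at chr5:4691022-4691137 on the plus strand. It falls opposite the last exon of AT5G14550, a glycosyltransferase family gene on the minus strand, in the untranslated part of that exon. The mir398c precursor (AT5G14565) lies at chr5:4694694-4694808 on the plus strand, between annotated protein-coding genes, 3556 nt downstream of the first. The hairpins have 116 and 115 nt. They were identical at 112 of 116 aligned columns (96.6%), and differed by the substitutions T36C, G48A and T52C and by 1 T that mir398c lacks. In these tokens the mir398b base comes first and positions count from 1 at the 5′ end of its precursor, in DNA letters. All 4 differences lie in the part between the 5p and 3p RNA. From 26 nt before offset 0 to 23 nt after it, a run of 50 nt, the loci are the same.

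The most frequent fragment of each hairpin in each library began exactly at offset 0, directly after the 3p RNA. In wild type, 2 ends of mir398c far downstream had as many reads (7 each). These tags are shown because their start is the base-side cut. Capitals mark the 24 nt from offset 0 on that both loci share, after which the first base that differs assigns a tag to its locus.
mir398b, fiery, 3726 reads: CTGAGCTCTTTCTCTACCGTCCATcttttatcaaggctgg
mir398b, wild type, 108 reads: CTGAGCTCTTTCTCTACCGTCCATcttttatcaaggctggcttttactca
mir398c, fiery, 3557 reads: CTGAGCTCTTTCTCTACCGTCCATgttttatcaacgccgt
mir398c, wild type, 7 reads: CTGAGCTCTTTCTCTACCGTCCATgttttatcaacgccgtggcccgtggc
The tags were read to 40 nt in fiery and to 50 nt in wild type. For mir398b, offset 0 (chr5, position 4691128) was the start of 78.7% of fiery reads (77.5 to 79.9) and of 87.2% of wild-type reads (80.0 to 92.5). The wild-type count of 109 includes 1 read of a tag of 42 nt. For mir398c, offset 0 (position 4694799) was the start of 58.4% of fiery reads (57.2 to 59.7) and of 15.6% of wild-type reads (6.49 to 29.5). The low wild-type share of mir398c goes with its many tags far downstream: of the 8 wild-type reads within 200 nt of the hairpin, 7 began at offset 0, or 87.5% (47.3 to 99.7), against 62.6% (61.3 to 63.9) of 5681 such reads in fiery. A main end exactly at offset 0 was common. It was found in 30 of 49 precursors (61.2%) with 1 annotated 3p RNA and at least 30 reads within 30 nt of the cut in fiery, and in 17 of 28 (60.7%) in wild type. Allowing 1 nt either way, it was found in 34 (69.4%) and 17 (60.7%) of them.

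The base-side cut had a second end 1 nt further down, at offset 1, that was larger in mir398c than in mir398b. Its fiery tags follow.
mir398b, fiery, 679 reads: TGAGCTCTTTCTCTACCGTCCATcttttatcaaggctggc
mir398c, fiery, 1284 reads: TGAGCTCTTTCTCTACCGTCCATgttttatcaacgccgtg
Among the reads at offset 0 or 1, offset 1 held 15.4% (14.4 to 16.5) for mir398b and 26.5% (25.3 to 27.8) for mir398c in fiery. The intervals do not overlap, although the loci are the same for 26 nt before and 24 nt from the cut. In wild type offset 1 held 6 of 115 reads of mir398b, or 5.22% (1.94 to 11.0), and 1 of 8 reads of mir398c, or 12.5% (0.316 to 52.7). The mir398b interval of wild type lies below that of fiery. Counting error alone does not cover that difference, which was not checked in a second pair of libraries. Tags of both starts can be seen in either library, since a start at offset 1 gives a full read of 40 or 50 nt.

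The offset 1 share placed both precursors among the higher ones of the fiery library. Of 30 precursors with at least 30 reads at offsets 0 and 1 in fiery, mir398c had the 6th and mir398b the 7th highest share, against a median of 3.22% (quartiles 1.78% and 7.71%). In wild type mir398b was 4th of 17, against a median of 1.71%. No read of either precursor began at offset -1 in either library, which in fiery allows up to 0.0634% of the mir398b reads and 0.0493% of the mir398c reads (3 counts). In fiery, 30 of 49 precursors had more reads at offset 1 than at offset -1, 7 had fewer and 12 had equal numbers. In wild type, 7 of 28 had more, 6 had fewer and 15 had equal numbers.

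**Figure D1:**
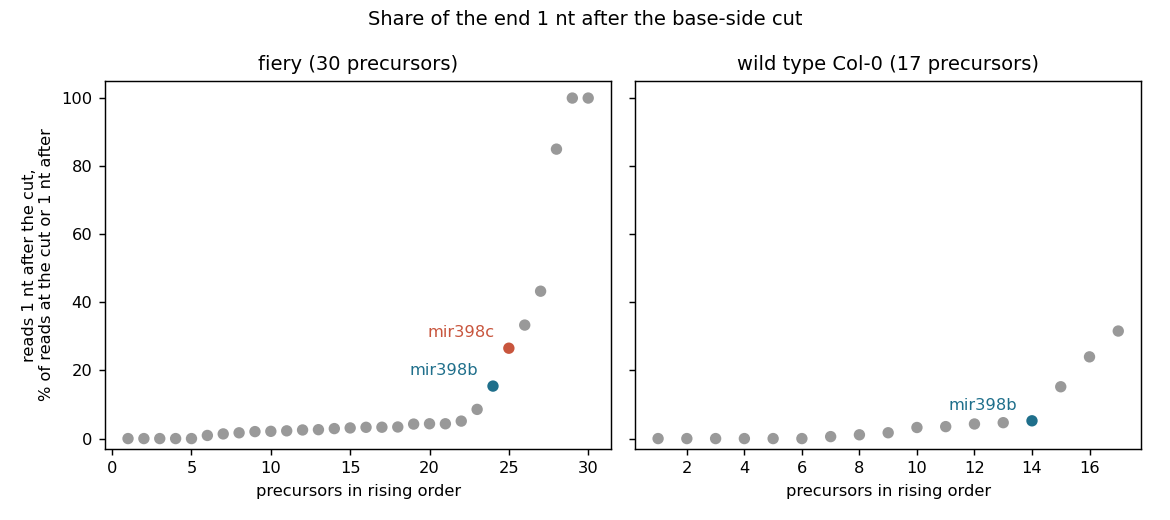
Each point is 1 precursor with at least 30 reads at the base-side cut or 1 nt after it, in rising order of the share of those reads that began 1 nt after the cut (y axis, percent), in the fiery library (left) and the wild-type library (right). In fiery mir398c (26.5%) and mir398b (15.4%) stand well above the median of 3.22%, and in wild type mir398b stands at 5.22%, while mir398c had too few reads to be drawn.

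Offsets 0 and 1 together held 93.1% of the fiery reads of mir398b (92.3 to 93.8) and 92.0% of its wild-type reads (85.8 to 96.1). The mir398c shares were 79.5% (78.5 to 80.5) of fiery and 17.8% (8.0 to 32.1) of wild-type reads. The remaining fiery reads of the hairpins were spread thinly over many ends. Within 200 nt, mir398b had 49 minor ends with 327 reads, of which 41 ends had fewer than 10 reads, and mir398c had 57 minor ends with 839 reads, of which 39 had fewer than 10. Wild type had 7 minor ends of mir398b with 10 reads, none with more than 2, and none of mir398c.

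**Figure D2:**
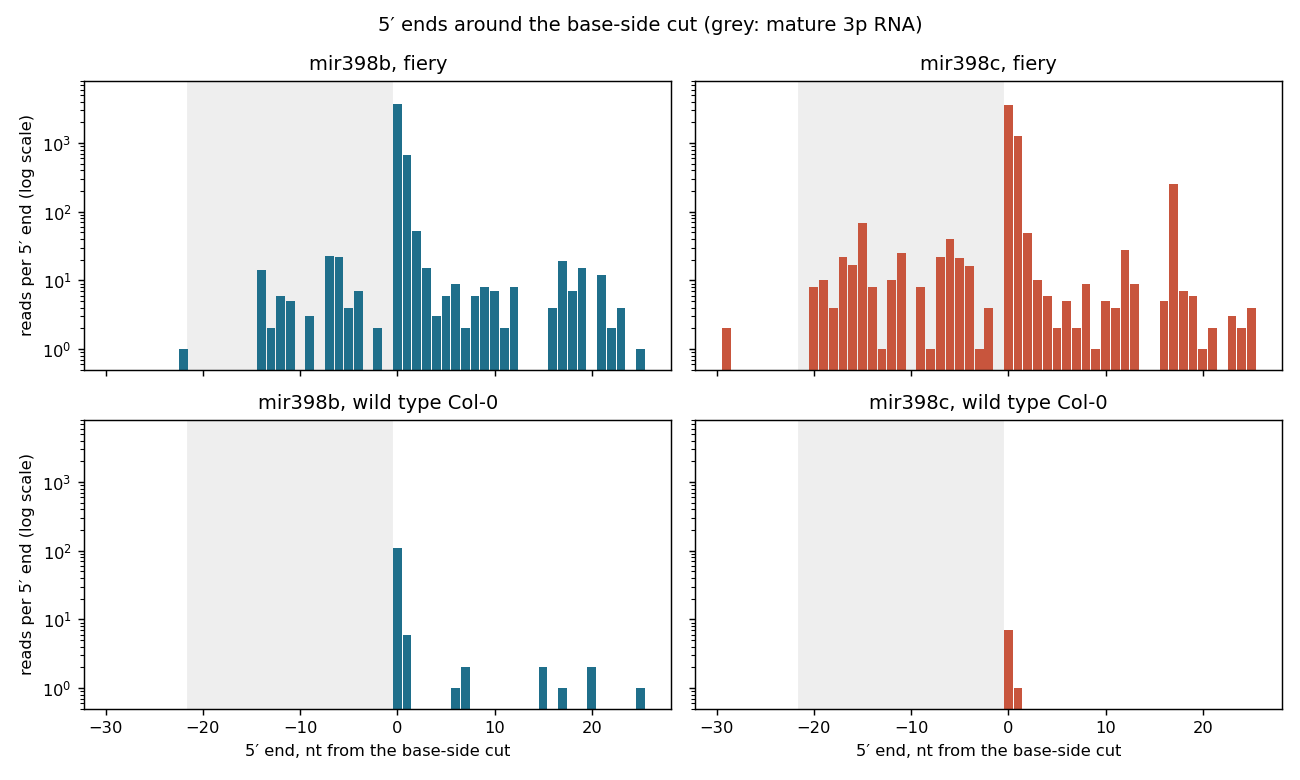
Reads at each 5′ end from 30 nt before to 30 nt after the base-side cut (x axis, nt; y axis, reads on a log scale), for mir398b (left) and mir398c (right) in fiery (top) and wild type (bottom), with the 3p RNA in grey. Offset 0 is the tallest bar in all 4 panels, with 3726 and 3557 reads in fiery and 109 and 7 in wild type, and the bar of mir398c at offset 17 (255 reads in fiery) has no like-sized bar in mir398b.

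The largest minor end set the loci apart. It was the mir398c end at offset 17 (position 4694816), with 255 fiery reads, 254 of them in a single tag of 34 nt, shown here with the shared bases in capitals.
mir398c, fiery, 254 reads: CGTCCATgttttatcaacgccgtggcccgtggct
It held 4.19% of the mir398c reads (3.70 to 4.72). The same position of mir398b held 19 fiery reads, or 0.402% (0.242 to 0.626), and 1 wild-type read. mir398c had no wild-type read there, where 45 reads in all allow up to 6.67%, so that a share as in fiery was not detectable. In the predicted fold, with 40 nt of flank on each side, the base at offset 17 is the last of a helix of 5 base pairs (offsets 13 to 17) in both precursors, and it pairs with the base 16 nt before the 5p RNA. The base at offset 0 was unpaired in both folds.

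Among offsets 2 to 12, just below the cut, offset 2 had the most fiery reads in both precursors, and no steady decline followed. In fiery, offset 2 had 53 reads of mir398b and 49 of mir398c, offset 3 had 15 and 10, offset 4 had 3 and 6, and offset 5 had 6 and 2. Offsets 2 to 12 together held 2.51% (2.09 to 3.0) and 1.99% (1.65 to 2.37). In wild type they held 3 reads of mir398b, at offsets 6 and 7. The short tags limit what could be seen here. In all but 1 of the 64 fiery reads of mir398b under 40 nt, and in 283 of 285 of mir398c, the 3′ end was at offset 50. From that end, starts at offsets 12 to 15 in fiery would give 36 to 39 nt, and starts at offsets 2 to 5 in wild type would give 46 to 49 nt, lengths that no tag of that library had. The reads seen in fiery at offset 12 (8 of mir398b and 28 of mir398c) and offset 13 (9 of mir398c) were in tags of 40 nt.

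Ends inside the 3p RNA were rare in both precursors. All 10 of mir398b were also ends of mir398c, which had 17. Those tags still hold the last part of the 3p RNA, so they come from fragments not cut at the base. In fiery they held 1.86% (1.49 to 2.29) of the mir398b reads and 4.57% (4.05 to 5.12) of the mir398c reads. One group lay at offsets -9 to -2, with 61 and 113 reads. Its largest ends were offset -7, with 23 and 22 reads, and offset -6, with 22 and 40. The other group lay at offsets -20 to -11, with 27 and 173 reads. That sum includes 8 reads of mir398c at offset -20, next to the loop-side cut, that the 4.57% leaves out. Its largest end was offset -15 of mir398c, with 68 reads, where mir398b had none. The wild-type library had no read in either group, and its 125 reads of mir398b allow up to 2.4%, above the fiery share.

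Fragments cut only near the loop were almost absent. A cut exactly at the loop side of the 3p RNA would leave an end at offset -21, and no read of either name began there in either library. Within 1 nt of it, fiery had 1 read of mir398b at offset -22 and 8 of mir398c at offset -20. These 9 reads were 0.0972% (0.0445 to 0.185) of the 9256 fiery reads at either cut of the pair, while wild type had 0 of 123, which allows up to 2.44%. The names of these reads are no guide to their locus. A tag of 40 nt that starts between offsets -26 and -16 lies wholly within the shared run of 50 nt, and all 62 fiery reads starting there, 61 listed as mir398c and 1 as mir398b, matched both loci. The difference between the names at offsets -20 to -16 (61 reads against 0) therefore cannot be read as one between the loci. The 68 reads at offset -15 have the mir398c base at their last position.

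Further up, on the 5′ arm, some nucleotides were ends in both precursors and others in 1 of them. By the design of the assay, a fragment with such an end would reach over the loop to the primer, with the 3′ arm uncut. The tags that start in the 5p RNA stop before the 3p RNA, so they do not show that arm. Counted from the first base of the 5p RNA, that base itself had 3 reads of mir398b and 44 of mir398c in fiery. The base 6 nt further in had 9 and 29, that 10 nt further in had 9 and 11, and that 12 nt further in had 4 and 17. A base 13 nt before the 5p RNA had 3 and 9. On this arm and in the loop, 7 ends were shared, which were 50% of the 14 ends of mir398b and 38.9% of the 18 of mir398c. They held 31 of 46 and 112 of 138 reads. On the 3′ arm and down to offset 25, which leaves out 5 ends of mir398b at offsets 64 to 91, 30 ends were shared. They were 93.8% of the 32 ends of mir398b and 73.2% of the 41 of mir398c. The unshared ends include those of mir398c at offsets -20 to -16 and that of mir398b at offset -22. Their reads matched both loci, so these ends do not show a difference between the loci. The 5p RNA's first base pairs, in both predicted folds, with the base at offset -2. Ends from 1 nt before the 5p RNA to its last base held 0.761% (0.533 to 1.05) of the mir398b reads and 1.81% (1.49 to 2.17) of the mir398c reads in fiery, against 0 of 125 and 0 of 45 in wild type. Those depths allow up to 2.4% and 6.67%, so shares as in fiery were not detectable. Wild type had 1 read in the loop of mir398b, 46 nt after the start of the 5p RNA.

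**Figure D3:**
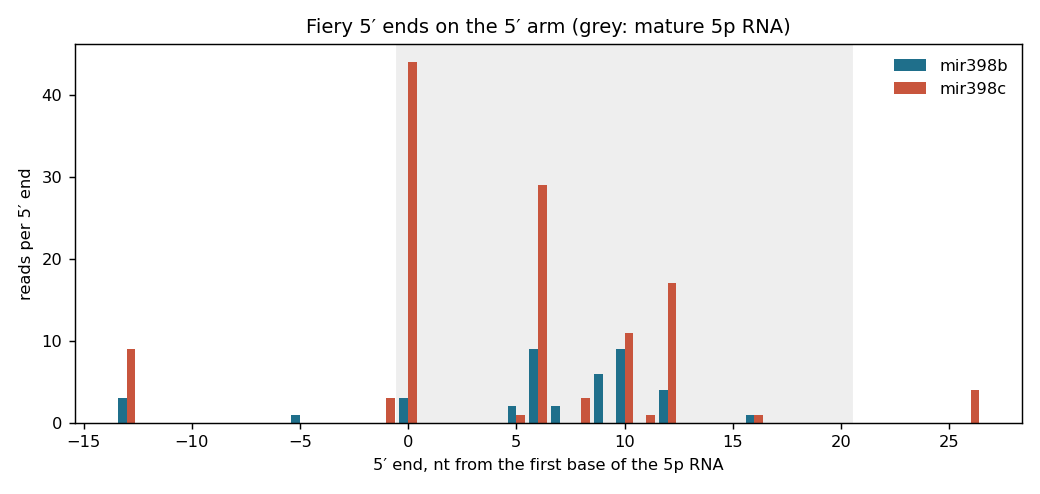
Fiery reads at each 5′ end near the 5p RNA (x axis, nt from its first base; grey, the 5p RNA of 21 nt; y axis, reads), for mir398b and mir398c side by side. Both have ends at the first base (3 and 44 reads) and 6, 10 and 12 nt after it.

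**Figure D4:**
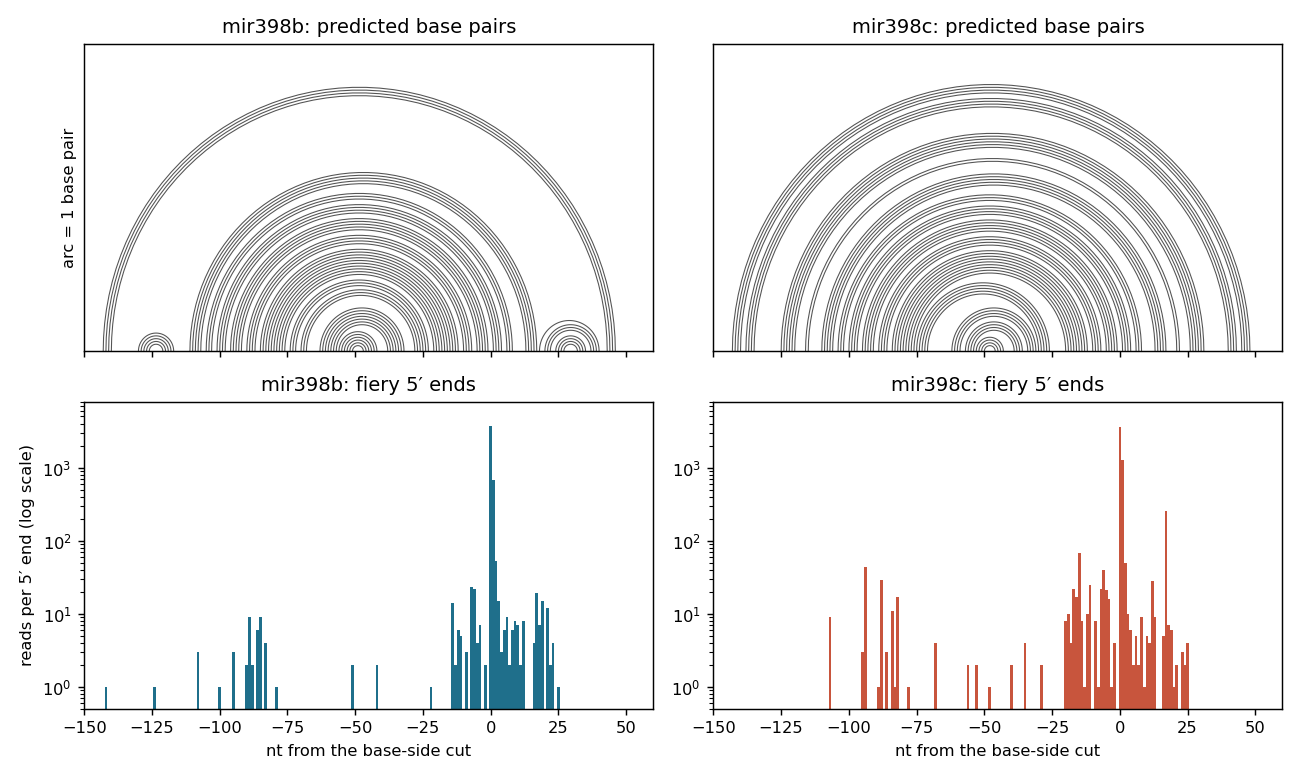
Top, predicted base pairs of each precursor with 40 nt of flank, 1 arc per pair; bottom, fiery reads at each 5′ end on a log scale. The x axis counts nt from the base-side cut, for mir398b (left) and mir398c (right). Outside it fall 2 reads of mir398c that start 173 nt before the cut, and the reads downstream of the hairpins (9 of mir398b and 408 of mir398c). In both precursors, the reads drawn gather in the 5p RNA, in the 3p RNA and in the 25 nt below the cut, with few in the loop.

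Tags downstream of the hairpin were the other feature that set mir398c apart. mir398b had 9 fiery reads at 5 ends, 64 to 91 nt after its cut, opposite the untranslated part of AT5G14550, and none further away in either library. mir398c had 408 fiery reads at 237 ends and 37 wild-type reads at 11 ends, all of them more than 200 nt away, and it had no end between offsets 25 and 487. They held 6.70% of its fiery reads (6.09 to 7.36) and 82.2% of its wild-type reads (67.9 to 92.0). They reached from offset 487 to 2487 in fiery and from 813 to 1918 in wild type, with medians over reads of 1721 and 1795. Of the 285 fiery reads in short tags of mir398c, 283 ended at offset 50, and no tag near its hairpin ended past offset 55. The downstream tags of mir398c start beyond both places.

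The downstream reads of mir398c lay on the plus strand, opposite AT5G14570 (NRT2.7), a nitrate transporter gene on the minus strand (4695084 to 4697078). Of the fiery reads, 388 of 408 (95.1%) began opposite its coding exons, 5 opposite its untranslated parts, 4 opposite its intron, 6 opposite the untranslated part of the next gene, AT5G14580, and 5 between those genes. Of the wild-type reads, 34 of 37 (91.9%) began opposite the coding exons and 3 opposite the intron. No end stood out: the most reads at 1 end were 8 in fiery and 7 in wild type, and 148 of the 237 fiery ends were read once. Of the 11 wild-type ends, 3 were also ends in fiery, at offsets 1012, 1795 and 1860, with 2, 1 and 2 fiery reads and 7, 4 and 7 wild-type reads. Each of these tags matched the genome once and had the full length of 40 or 50 nt. Reads over 200 nt from the named precursor were found under 40 names in fiery (1393 of 33192 reads) and 26 in wild type (386 of 12129). By number of such reads, mir398c was 2nd in both libraries, after mir779. By share of a precursor's own reads, its 6.70% was only 10th highest in fiery. That rank is among the 49 precursors with 1 annotated 3p RNA and enough reads near the cut, with an upper quartile of 1.47%. In wild type mir398c had too few reads near the cut to be ranked by share.

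**Figure D5:**
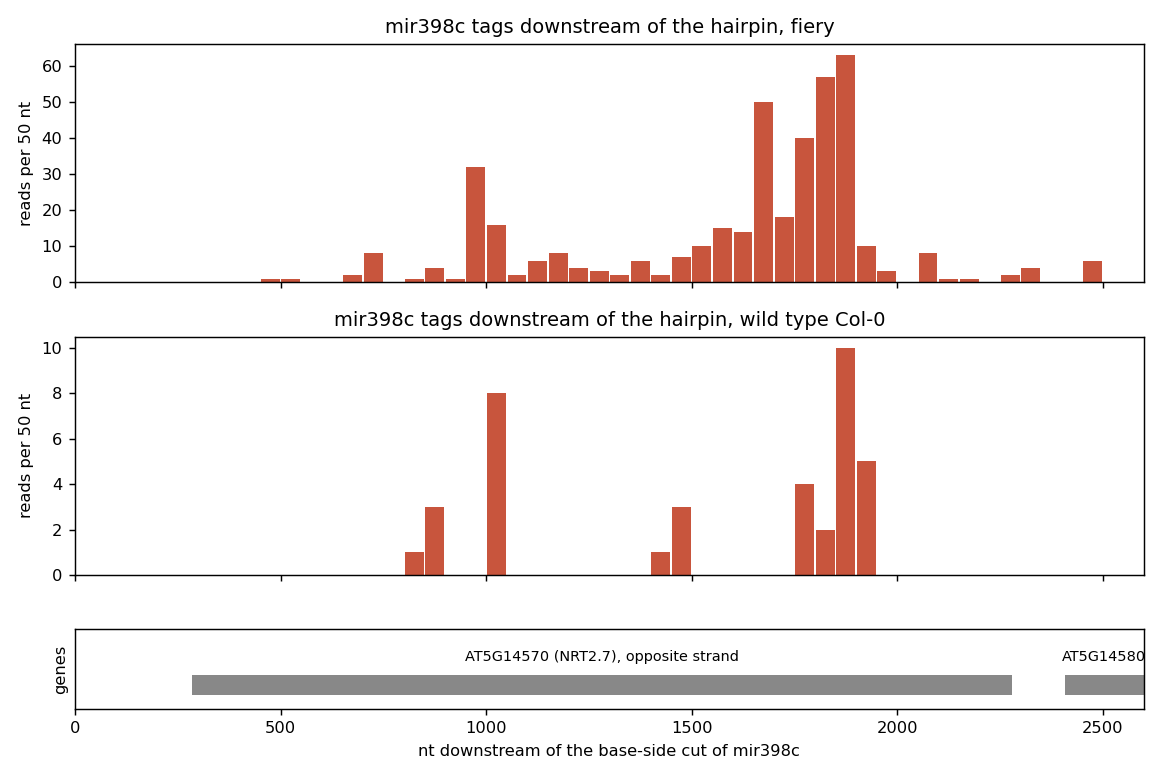
Reads of mir398c tags more than 50 nt after its base-side cut, in bins of 50 nt (x axis, nt from the cut), in fiery (top) and wild type (middle), with the genes on the opposite strand drawn to scale (bottom). The reads lie over AT5G14570 (NRT2.7) in both libraries, 408 in fiery and 37 in wild type including the few beyond that gene.

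The ratio between the libraries was larger for the hairpin reads of mir398c than for its downstream tags. As shares of all reads of a library, mir398b and mir398c were both higher in fiery, as were 23 of 47 precursors (48.9%) whose interval of the ratio of shares lay above 1. For 18 of the 47 (38.3%) it lay below 1. From the highest ratio down, mir398c was 3rd and mir398b 9th of the 47. Reads at offset 0 of mir398b made up 11.2% of the fiery library and 0.899% of the wild-type library, a ratio of 12.5 (10.3 to 15.3). At offset 1 the ratio was 41.4 (18.9 to 113), from 679 reads against 6, and at its other ends within 200 nt it was 11.9 (6.42 to 25.2), from 327 against 10. Reads at offset 0 of mir398c made up 10.7% of the fiery library and 0.0577% of the wild-type library, a ratio of 186 (90.0 to 462). At offset 1 it was 470 (84.1 to 18561), from 1285 reads against 1. At the other ends within 200 nt, with 839 reads against 0, mir398c was at least 102-fold higher in fiery by the floor of 3 counts in the wild-type library, while the exact interval of the ratio begins at 82.9. Its downstream tags differed far less, at 1.23% of fiery reads against 0.305% of wild-type reads, a ratio of 4.03 (2.87 to 5.81). These ratios depend on the tissue mixture, in which fewer cells of a type and less RNA per cell cannot be told apart, and on the different read lengths of the libraries. With tags of 35 nt or less left out, the ratio over all reads was 6.30 (5.26 to 7.62) for mir398b, against 13.8 with all tags. For mir398c it was 20.9 (15.6 to 28.7), against 49.4 with all tags. The pair itself lost few reads: mir398b kept 4668 fiery and 120 wild-type reads, and mir398c kept 5804 and 45. The lower ratios come mostly from the library totals, of which wild type lost the larger part through short tags of other precursors.

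The loci also differed from each other in balance. In fiery the reads at offset 0 were close in number (3726 of mir398b and 3557 of mir398c), while in wild type they were 109 and 7. The labels describe precursor-specific primers, whose sites were not placed here, so the levels of the pair are not compared beyond these counts.

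Of the other copper-responsive microRNAs, mir408 had as many wild-type reads as mir398b and far fewer fiery reads. mir408, whose product targets copper proteins of the plantacyanin and laccase families, had 420 fiery and 125 wild-type reads, or 1.27% (1.15 to 1.39) and 1.03% (0.859 to 1.23). mir397a, whose product targets laccases, had 11 and 3 reads, and mir857, which also targets a laccase, had 3 and 2. mir397b was not analysed here.

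By the distribution of ends within 30 nt of the cut, the fiery profiles most like mir398b were those of mir172b, mir167a and mir171a, at total variation distances of 0.0976, 0.156 and 0.159 (0 means the same profile and 1 no shared end) over 47 other precursors. mir172b had 83.8% of its reads at offset 0 and 7.85% at offset 1. Nearest to mir398c were mir172b, mir156a and mir164b, at 0.254, 0.266 and 0.288. The distance between mir398b and mir398c was 0.171. At least 3 other precursors were thus nearer to mir398b than its near-copy was, while mir398c had none nearer than mir398b. In wild type the nearest to mir398b among 27 others were mir393a, mir168a and mir165b, at 0.0781, 0.0831 and 0.0859. The profile of mir398b itself differed by 0.148 between fiery and wild type. These distances describe 1 library each and have no error estimate.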

How the data were processed

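The deposited files, 1 per library, list a precursor name, a tag sequence and its abundance, which the values show to be raw read counts, whole numbers that the authors deposited without normalisation. Per the labels' protocols, libraries came from adaptor ligation to RNA 5′ ends, multiplex reverse transcription with precursor-specific primers and 18 PCR cycles. Bowtie and the build TAIR10 are named by the submitters' processing notes. The aligner's settings were not stated there. Depth was 33192 fiery and 12129 wild-type reads, so a precursor without reads could hold up to 0.00904% and 0.0247% (3 counts). Tags were matched exactly to TAIR10.1 (RefSeq) on both strands through a 26 nt seed, and the match nearest the named precursor was used. All tags of both members matched, none of them antisense. Tags of the mir405 copies a, b and d were pooled for the number of precursors and for the ratios between libraries. In the profiles of ends the copies were kept apart. Folds used RNAfold 2.7.2 and the hairpin alignment used Biopython 1.88. Statistics used Python 3.11.15, scipy 1.17.1, numpy 2.4.6, pandas 2.3.3 and matplotlib 3.10.9. There was no test between groups. The interval code was tested on simulated counts. Placement was checked only on the real tags of the members, which were placed by exact match, so that check could not fail. Members, lists and rules were chosen with earlier results of these data known. The precursors named as alike are the 3 nearest by total variation distance per library. Alternatives were other windows, tags over 35 nt, tags counted once, single matches, tags within 200 nt and other denominators.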

Additional observations from a re-analysis of the deposited data

How the results depend on the processing

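No paired analysis was possible because each group has 1 library. Of 64 recomputed values, 38 stayed within the interval of the reported value and 26 moved beyond it. Neither ratio turned below 1, but with distinct tags counted once the interval for mir398b took in 1. With only tags within 200 nt, the ratio of mir398c was 259, and its offset 0 share was 62.6% in fiery and 87.5% in wild type. With only tags over 35 nt, the ratios were 6.30 (mir398b) and 20.9 (mir398c), the offset 0 share of mir398c in fiery was 61.3%, and the minor ends other than offset 1 held 5.63% and 9.56% in fiery. Without the pair in the denominator, the ratios were 20.2 and 72.3. Within 1 nt of the cut, the fiery shares were 93.1% and 79.5%. At the exact position, the fiery loop-side shares were 0% for both. Beyond 50 nt, 0.190% of the fiery mir398b reads were distal.

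Counting each distinct tag once sets the main tag equal to any tag read once. The ratios were then 1.82 (0.940 to 3.88) for mir398b and 8.87 (5.11 to 16.9) for mir398c. The offset 0 shares were 1.92% (mir398b) and 0.334% (mir398c) in fiery and 18.2% (mir398b) in wild type. The offset 1 shares were 1.92% and 0.669% in fiery. The other minor ends held 96.2% and 19.7% in fiery and 72.7% (mir398b) in wild type, and distal tags of mir398c were 79.3% in fiery. The main limits are 1 library per group, 45 wild-type reads of mir398c with 8 near the hairpin, and tag lengths absent from each library.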
